A study of Mus musculus with 24 samples.

Results

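The proteasome genes described here are the Psma, Psmb, Psmc, Psmd and Psme genes, taken as every probe set whose single annotated symbol is one of these stems followed by a number alone. This rule found 41 genes of the 12393 with a probe set of their own, measured by 74 of the 22626 probe sets tested. Of these genes, 22 had 1 probe set and 19 had several. The inducible group holds Psmb8, Psmb9, Psmb10 and Psme1 with 1 probe set each, and the constitutive group holds 69 probe sets of 36 genes. Psma8, the outer ring subunit of germ cells, stood alone. Psme2, the partner of Psme1, had no probe set of its own, because its probe set is annotated to Psme2b as well, and Psmb11, the thymus subunit, was not measured here.

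The study set ovaries of the high-fertility mouse line FL1 against ovaries of the control line DUKsi, to look for genes tied to a higher ovulation number. FL1 is an outbred line that was selected up to generation 130 on an index of litter size and litter weight at birth, and DUKsi is an unselected inbred line from the same founder population. All animals were virgin females aged 6 to 9 weeks at the metestrous stage of the cycle, and RNA of whole ovaries was combined into 6 pools per line, each hybridized to 2 arrays. The labels give 30 animals per line and 6 per pool, whereas 30 animals in 6 pools make 5 per pool. The pool, not the animal, is the replicate here, and selection, inbreeding and drift cannot be told apart with 1 line of each kind.

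The proteasome degrades proteins that carry ubiquitin chains. Its 20S core is a barrel with outer rings of alpha subunits (Psma) and inner rings of beta subunits (Psmb), and its 19S cap binds, unfolds and feeds in the substrate by way of ATPases (Psmc) and non-ATPase subunits (Psmd). In immune cells, and in other cells after interferon gamma, the catalytic beta subunits Psmb5, Psmb6 and Psmb7 are replaced in new particles by Psmb8, Psmb9 and Psmb10, which gives the immunoproteasome. It is known for producing peptides for MHC class I molecules. Psme1 and Psme2 form PA28, an activator that docks on the core and is also induced by interferon gamma.

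Signals are MAS5 values on a linear scale, which the authors brought to a common level on each array. Median signals of single arrays lay between 212 and 245, and 20% of all signals lay below 48.4. Median signals of pools were 214 to 236 in FL1 and 226 to 241 in DUKsi (exact permutation test over the pools, two-sided, p = 0.0108). "Rose" and "fell" are used for an adjusted p under 0.01 in limma with Benjamini-Hochberg adjustment over all probe sets, on log2 of pool means. Pools of FL1 had a beta-actin 3' to 5' signal ratio of 1.32 to 2.45, against 1.18 to 1.32 in DUKsi pools, with every FL1 pool above every DUKsi pool (exact permutation test over the pools, two-sided, p = 0.00216, which is the lowest that 6 against 6 pools allow). This ratio reads how intact the RNA and its copies were, and it moved with the line. FL1 pool 3 had the highest ratio.

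The catalytic subunits of the immunoproteasome were higher in FL1 ovaries, while the constitutive subunits lay close to equal between the lines. Psmb9 rose 1.97-fold and Psmb8 rose 1.66-fold. Psmb10 and Psme1 had higher means in FL1 but missed the threshold. Of all 74 probe sets, 3 rose, none fell and 71 did neither. The 3 were those of Psmb9, Psmb8 and Psmd12, or 4.05% of the members, beside 1.83% of all probe sets that rose, 1.55% that fell and 3.38% in either direction. Psmb8 and Psmb9 were also past a ratio of 1.5, beside 1.24% of all probe sets that rose by as much. At an unadjusted p under 0.05 the same limma fit gave 14 of 74 members, a share no higher than the 19.8% of all probe sets, and at an adjusted p under 0.05 it gave 5 higher and 1 lower, beside 3.5% and 3.42% of all probe sets.

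**Figure D1:**
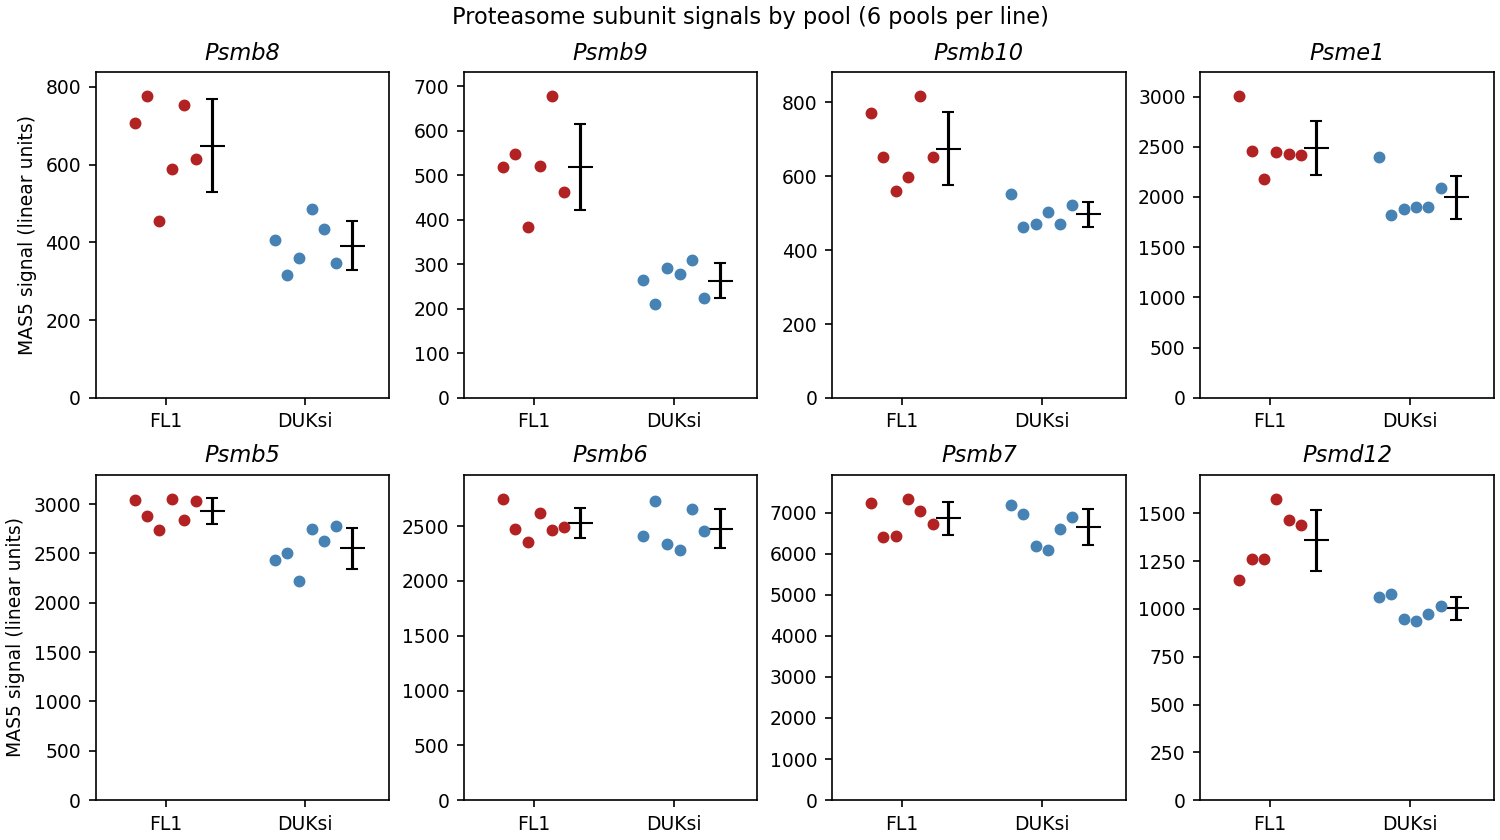
MAS5 signal (linear units, from 0) of 8 proteasome genes in each of the 6 FL1 pools (left, red) and 6 DUKsi pools (right, blue), with mean and SD in black. The lines do not overlap for Psmb9, Psmb10 and Psmd12, and they overlap for Psmb6 and Psmb7.

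Psmb9 encodes the inducible subunit that takes the place of Psmb6. Its signal was 384 at the lowest, 520.0 at the median and 677 at the highest in FL1 pools, against 211, 271 and 310.5 in DUKsi pools. The lines did not overlap, and they did not overlap over single arrays either, with 348 to 782 on 12 FL1 arrays and 207 to 327 on 12 DUKsi arrays. Means were 518 ± 97.4 for FL1 and 263 ± 38.9 for DUKsi (± SD over 6 pools a line), a log2 difference of 0.97 (SE 0.134, 95% interval 0.68 to 1.25, limma adjusted p = 0.00025). FL1 pool 5 was the highest of its line and FL1 pool 3 the lowest.

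Psmb8 encodes the inducible subunit that takes the place of Psmb5. Its signal was 455 at the lowest, 662 at the median and 776 at the highest in FL1 pools, against 316, 383 and 486 in DUKsi pools. The lines met through a single pool, FL1 pool 3, and the other 5 FL1 pools lay above all DUKsi pools. Means were 649 ± 121 for FL1 and 392 ± 62.7 for DUKsi (± SD over 6 pools a line), a log2 difference of 0.72 (SE 0.135, 95% interval 0.43 to 1.01, limma adjusted p = 0.00326). The call was lost on array 1 of each pool alone (adjusted p = 0.0314), and without DUKsi pool 2 or DUKsi pool 6 (0.0104) it lay just above the threshold. It was also lost with the methods' t-test (0.0244) and in limma without the trend (0.0130).

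Psmb10 encodes the inducible subunit that takes the place of Psmb7. Its signal was 559 at the lowest, 652 at the median and 816 at the highest in FL1 pools, against 464, 487 and 551 in DUKsi pools. The lines did not overlap, as was so for 3 members in all that were higher (Psmb9, Psmb10 and Psmd12), beside 2.24% of all probe sets. Means were 675 ± 99.3 for FL1 and 497 ± 34.7 for DUKsi, and the log2 difference was 0.43 (SE 0.096, 95% interval 0.23 to 0.64) with a limma adjusted p of 0.0110, so Psmb10 did not pass. Array 1 of each pool alone gave 0.64 (adjusted p = 0.00276) and array 2 alone gave 0.24 (adjusted p = 0.298), so the size differed between the technical arrays. Without FL1 pool 3 it passed (0.48, adjusted p = 0.00342).

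Psme1 encodes the alpha chain of PA28. Its signal was 2176 at the lowest, 2440 at the median and 3002 at the highest in FL1 pools, against 1819, 1898 and 2397 in DUKsi pools. DUKsi pool 1 reached into the range of FL1. Means were 2488 ± 273 for FL1 and 1996 ± 216 for DUKsi (± SD over 6 pools a line), a log2 difference of 0.32 (SE 0.083, 95% interval 0.14 to 0.49, limma adjusted p = 0.0300). It passed without DUKsi pool 1 (0.37, adjusted p = 0.00894), while it gave 0.26 (0.0565) without FL1 pool 1 and 0.23 (0.124) on array 2 of each pool alone. The probe set shared by Psme2b and Psme2, which is no member, averaged 1539 ± 95.9 in FL1 and 1321 ± 81.0 in DUKsi (log2 difference 0.22, adjusted p = 0.0490), and which of its genes gave the signal cannot be told apart.

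Upstream sequences are shown for both inducible genes that rose and for their constitutive partners, from RefSeq promoter windows on GRCm38.p6. Each holds the 250 bases before the annotated start, on the strand of the gene. In the Psmb9 sequence, at chr17:34187331-34187580 on the minus strand, capitals mark the 25 bases that already belong to Tap1, a peptide transporter gene read in the opposite direction, which leaves 225 bases between both starts. The Psmb8 sequence is chr17:34197945-34198194 on the plus strand, Psmb5 is chr14:54617996-54618245 on the minus strand and Psmb6 is chr11:70525107-70525356 on the plus strand, and there capitals mark a motif match.
Psmb9: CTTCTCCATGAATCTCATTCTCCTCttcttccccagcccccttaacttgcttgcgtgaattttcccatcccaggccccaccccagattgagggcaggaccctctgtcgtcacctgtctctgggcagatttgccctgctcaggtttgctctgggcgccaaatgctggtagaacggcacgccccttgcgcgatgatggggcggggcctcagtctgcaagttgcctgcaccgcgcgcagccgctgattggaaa
Psmb8: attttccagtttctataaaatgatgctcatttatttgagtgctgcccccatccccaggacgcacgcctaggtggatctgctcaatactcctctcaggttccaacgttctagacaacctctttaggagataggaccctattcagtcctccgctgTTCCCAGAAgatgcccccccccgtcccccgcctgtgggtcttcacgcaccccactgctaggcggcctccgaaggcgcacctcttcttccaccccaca
Psmb5: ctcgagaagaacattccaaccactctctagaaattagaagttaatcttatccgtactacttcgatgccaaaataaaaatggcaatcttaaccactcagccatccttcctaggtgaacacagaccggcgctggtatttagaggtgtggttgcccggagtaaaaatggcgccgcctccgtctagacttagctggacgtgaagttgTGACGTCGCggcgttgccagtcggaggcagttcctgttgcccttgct
Psmb6: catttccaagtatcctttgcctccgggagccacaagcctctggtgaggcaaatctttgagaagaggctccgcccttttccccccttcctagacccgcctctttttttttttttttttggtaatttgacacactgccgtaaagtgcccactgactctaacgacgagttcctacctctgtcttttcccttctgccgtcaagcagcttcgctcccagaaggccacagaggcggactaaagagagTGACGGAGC

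A set of 3 motifs were searched on both strands of the whole 300-base windows, which add 50 bases after the start, for the 34 member genes that had one. The gamma-activated site TTCNNNGAA was in 8.30% of 32851 windows and in those of 2 member genes, Psmb8 and Psmd2. In Psmb8 the match was TTCCCAGAA, with its first base 97 bases before the start. The core of the interferon-stimulated response element, GAAANNGAA, was in 8.56% of windows and in those of 6 member genes, with Psme1 as the only inducible one. The antioxidant response element core TGACNNNGC, a site of the Nfe2l1 factor that drives proteasome genes, was in 12.4% of windows and in those of 6 member genes, among them Psmb5 (TGACGTCGC), Psmb6 (TGACGGAGC) and Psmd12. A match describes letters only.

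The constitutive catalytic subunits showed small differences. Psmb5, the chymotrypsin-like subunit, averaged 2932 ± 131 in FL1 and 2551 ± 211 in DUKsi (log2 difference 0.20, 95% interval 0.068 to 0.34, adjusted p = 0.0712). Psmb6, the caspase-like subunit, averaged 2527 ± 138 in FL1 and 2478 ± 180 in DUKsi (0.03, interval -0.10 to 0.16, adjusted p = 0.838). Psmb7, the trypsin-like subunit, averaged 6859 ± 406 in FL1 and 6650 ± 443 in DUKsi (0.05, interval -0.086 to 0.18, adjusted p = 0.735). None of the 3 passed, and for each the interval leaves out a difference of 1.5-fold.

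Each inducible subunit was then set against the subunit it replaces, within a pool. Signals of different probe sets are not on 1 scale, so only the change of this ratio between the lines is read, not its height. For Psmb9 over Psmb6 the ratio was 0.163 at the lowest, 0.194 at the median and 0.275 at the highest in FL1 pools, against 0.0773, 0.113 and 0.125 in DUKsi pools. The lines did not overlap, and the ratio was 1.92-fold higher in FL1 (log2 difference 0.94, exact permutation over 12 pools, two-sided, p = 0.00216, adjusted over 3 pairs 0.00649).

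For Psmb8 over Psmb5 the ratio was 0.166 at the lowest, 0.217 at the median and 0.269 at the highest in FL1 pools, against 0.125, 0.164 and 0.177 in DUKsi pools. FL1 pool 3 alone lay inside the DUKsi range, and the ratio was 1.43-fold higher in FL1 (0.52, exact permutation p = 0.00649, adjusted 0.00649). For Psmb10 over Psmb7 the ratio was 0.0817 at the lowest, 0.0995 at the median and 0.116 at the highest in FL1 pools, against 0.0666, 0.0760 and 0.0826 in DUKsi pools. FL1 pool 4 lay just below DUKsi pool 4, the highest of its line. This ratio was 1.31-fold higher in FL1 (0.39, exact permutation p = 0.00433, adjusted 0.00649), but on array 2 of each pool alone it did not pass (0.18, adjusted exact permutation p = 0.160).

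**Figure D2:**
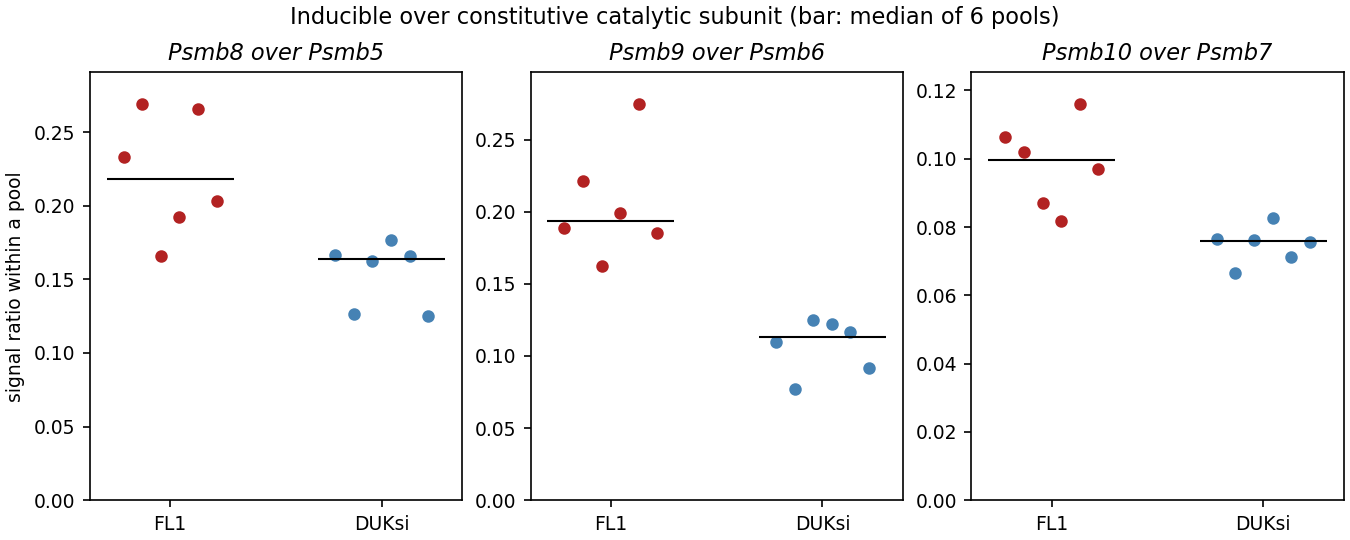
Ratio of the signals of each inducible catalytic subunit and the constitutive subunit it replaces, within each of the 6 FL1 pools (left, red) and 6 DUKsi pools (right, blue), with the median as a bar and axes from 0. Psmb9 over Psmb6 shows the widest gap, with 0.163 to 0.275 in FL1 and 0.0773 to 0.125 in DUKsi.

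Over the 36 constitutive genes, each by its brightest probe set, 1 rose and none fell, and 35 had line means within 20% of each other. Leaving out Psmd12, the 95% intervals of the other 35 genes ran from -0.42 to 0.51 on the log2 scale, so none of them reached a 1.5-fold difference. The median log2 difference of all 69 constitutive probe sets was -0.0052 (quartiles -0.12 and 0.11), beside -0.069 (quartiles -0.24 and 0.091) over all probe sets tested, and it turned to 0.0024 under quantile normalization and to 0.082 with arrays scaled to the same median. The 4 inducible probe sets had a median of 0.58 and a range of 0.32 to 0.97, and all 4 stayed above 0 under both of these scalings.

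**Figure D3:**
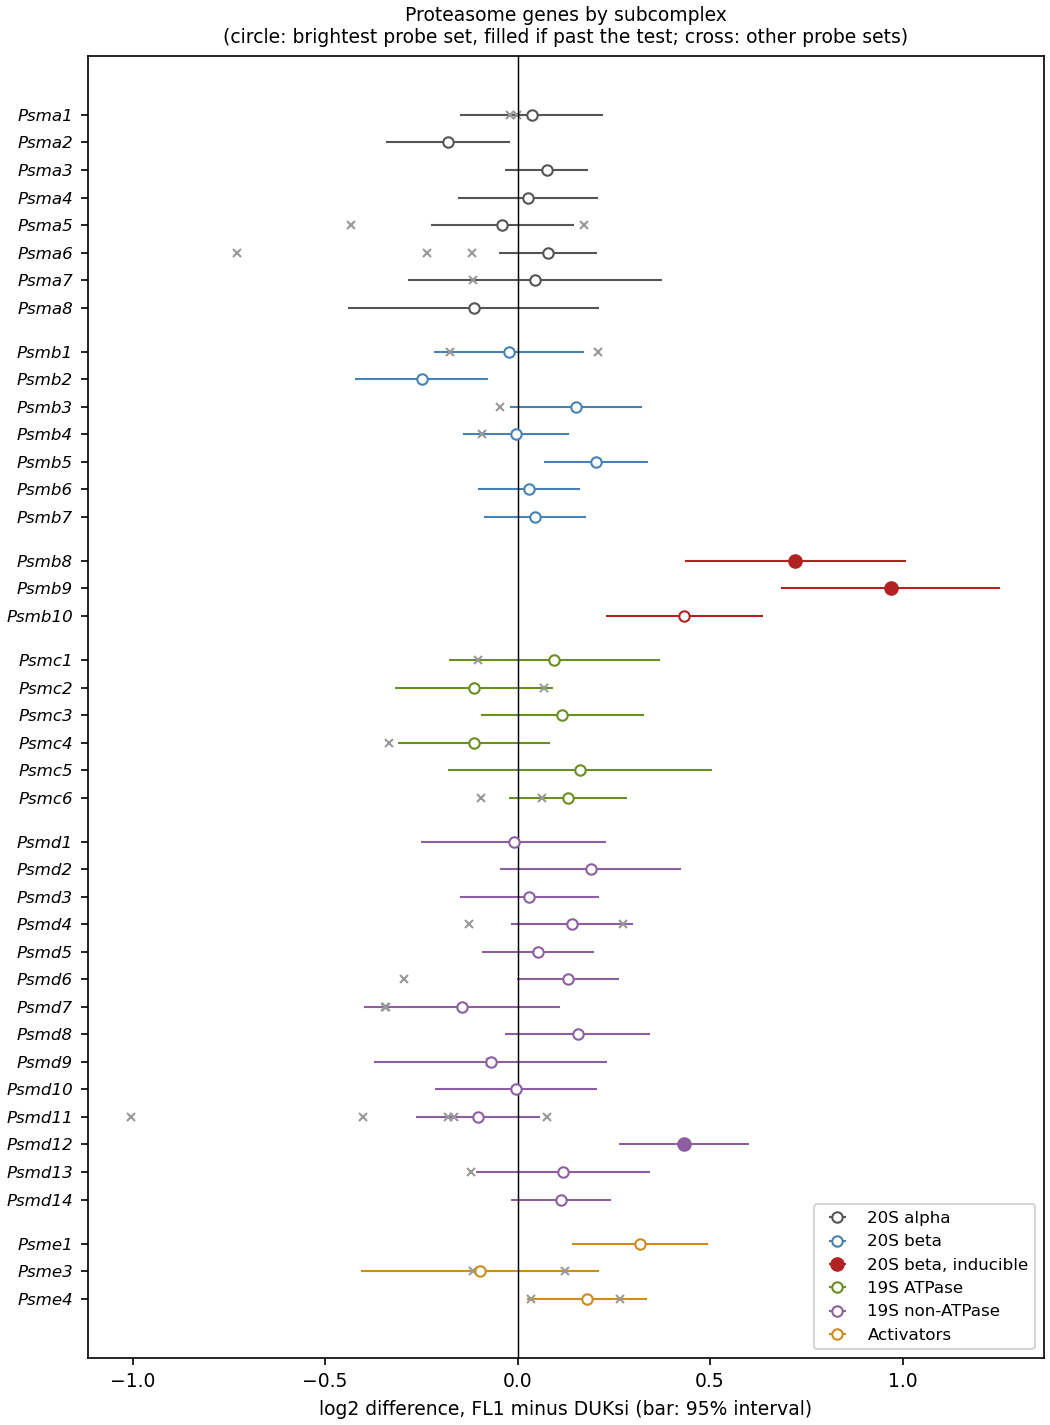
Log2 difference (FL1 minus DUKsi) of 41 proteasome genes, grouped by subcomplex. Circles are the brightest probe set of each gene with its 95% interval, filled where it passed the test, and crosses are other probe sets. The filled circles are Psmb8 (0.72), Psmb9 (0.97) and Psmd12 (0.43), and most other genes lie near 0.

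Psmd12, a subunit of the 19S lid, was the only constitutive member that rose. Its signal was 1152 at the lowest, 1349.9 at the median and 1577 at the highest in FL1 pools, against 939, 994 and 1077 in DUKsi pools. The lines did not overlap. Means were 1359 ± 159 for FL1 and 1002 ± 58.3 for DUKsi (± SD over 6 pools a line), a log2 difference of 0.43 (SE 0.0793, 95% interval 0.26 to 0.60, limma adjusted p = 0.00273) and a ratio of 1.36. The call was lost on array 2 of each pool alone (adjusted p = 0.0214), with the beta-actin ratio as a covariate (0.0143), with the methods' t-test (0.0149), in limma without the trend (0.0134) and with the pool number as a replicate block (0.0184).

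In the 19S lid, Psmd6 and Psmd11 gave different answers by probe set. For Psmd6, the dimmer probe set had 550.4 to 710.3 in FL1 pools, against 731 to 886 in DUKsi pools, and was the only member whose FL1 pools all lay below the DUKsi pools, beside 2.39% of all probe sets. Its log2 difference was -0.30 (adjusted p = 0.0293). The brighter probe set of Psmd6 had a difference of 0.13 (adjusted p = 0.256). The 6 probe sets of Psmd11 ran from -1.004 to 0.08 and none passed. The lowest value came from a dim probe set, with line means of 48.8 in FL1 and 89.5 in DUKsi. The brightest probe set of Psmd11 had -0.10. The probe set of Psmd11 with a difference of -0.40 was singled out after its values were seen: FL1 pool 3 had 3532 while the other FL1 pools had 1725 to 2147, against 2357 to 3196 in DUKsi pools, and without FL1 pool 3 it fell (-0.55, adjusted p = 0.00074).

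The other subcomplexes had no member past the test, and at an unadjusted p under 0.05 limma gave 2 of 15 alpha probe sets, 2 of 11 constitutive beta probe sets and none of 11 ATPase probe sets, beside 19.8% of all probe sets. Among the 7 constitutive alpha genes, which form the gated outer rings, brightest probe sets ran from Psma2 at -0.18 (adjusted p = 0.190) to Psma6 at 0.08 (0.503). Among the 7 constitutive beta genes the lowest was Psmb2, a non-catalytic inner ring subunit, at -0.25 (0.0855). The 6 ATPase genes ran from Psmc2 at -0.11 (0.563) to Psmc5 at 0.16 (0.625). Among the 14 Psmd genes, grouped as non-ATPase by symbol alone, the lowest was Psmd7, a lid subunit, at -0.14 (0.550). Of the 19 genes with several probe sets, 14 had probe sets on both sides of 0.

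The activators that interferon does not drive, Psme3 and Psme4, had no probe set past the test. Under an unadjusted limma p of 0.05 were 2 of their 6, beside 19.8% of all probe sets. Both were of Psme4 and higher in FL1. Psme3, the nuclear activator PA28 gamma, had differences of -0.10, -0.12 and 0.12 over its 3 probe sets, the last of them below 48.4 in both line means. Psme4, which encodes the activator PA200, had 0.27 (adjusted p = 0.103), 0.04 (0.909) and 0.18 (0.177). Psma8 had 90.1 ± 14.7 in FL1 and 96.7 ± 7.19 in DUKsi (-0.11, adjusted p = 0.732).

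Proteasome genes also varied between pools of a line. FL1 pool 3 was the lowest FL1 pool for 17 of 36 constitutive genes, and DUKsi pool 4 was the lowest DUKsi pool for 14 of 36. DUKsi pool 4 also stood apart in Ovgp1, an oviduct gene, with a signal of 3462, while FL1 pools had 165 to 389 and the other DUKsi pools 205 to 330.2. FL1 pool 3 was also the lowest FL1 pool for Psmb8, Psmb9, Psmb10 and Psme1. Without FL1 pool 3 and DUKsi pool 4, Psmb9 (1.07, adjusted p = 0.000159), Psmb8 (0.88, 0.00018) and Psmd12 (0.43, 0.00637) still passed, and Psmb10 did as well (0.49, 0.00641). With the beta-actin ratio as a covariate, which had no range common to both lines, Psmb9 (1.19, adjusted p = 0.000151) and Psmb8 (1.02, 0.000164) passed, and so did Psmb10 (0.61, 0.00153) and Psme1 (0.46, 0.00389).

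**Figure D4:**
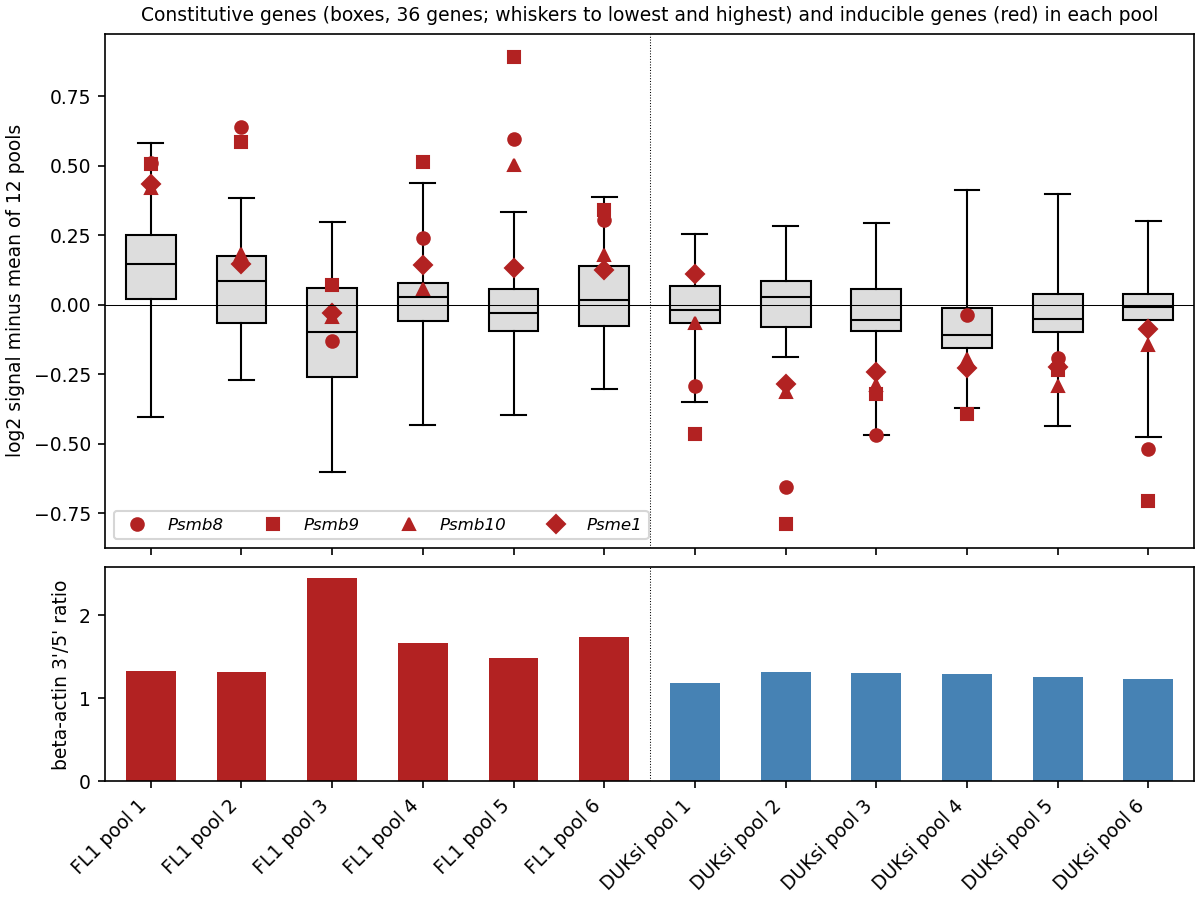
Top, log2 signal minus the mean of 12 pools for the 36 constitutive genes (boxes with quartiles, whiskers to the lowest and highest gene) and for the 4 inducible genes (red symbols), in 6 FL1 pools (left) and 6 DUKsi pools (right). Bottom, beta-actin 3' to 5' signal ratio of the same pools from 0. Boxes stay near 0 in all pools, and FL1 pool 3 has the highest actin ratio, 2.45.

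Of 22 further genes of the proteasome pathway, whose symbols the rule does not cover, 18 were measured, none rose and none fell. Their median log2 difference was -0.045. The methods' t-test gave none either. At an unadjusted p under 0.05 the limma fit gave 2, Pomp and Nfe2l1, beside 19.8% of all probe sets. Pomp, the maturation factor of the core, averaged 2117 ± 109 in FL1 and 1840 ± 101 in DUKsi (log2 difference 0.20, adjusted p = 0.0485). The largest difference in size was that of Psmg2, an assembly chaperone, at -0.30 (adjusted p = 0.417).

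Genes that handle class I peptides, together with the interferon genes Irf1 and Ifng, were measured beside the inducible subunits, and 2 of 7 rose. Tap1 averaged 359 ± 58.2 in FL1 and 162 ± 20.7 in DUKsi (log2 difference 1.14, adjusted p = 3.54e-05), and its other 3 probe sets, with line means of 6.87 to 65.9, were between -0.48 and -0.23 and did not pass. B2m, the light chain of class I molecules, rose as well, by 1.03 in its brighter probe set (adjusted p = 0.000137; the methods' t-test gave 0.0139) and by 0.55 in the other (adjusted p = 0.000688). Tap2 had 0.42 (0.0522), Tapbp 0.02 (0.917), Erap1 -0.21 (0.280), and the interferon genes Irf1 and Ifng had -0.05 (0.888) and 0.16 (0.820). Nlrc5 was not measured here.

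In RefSeq gene order on GRCm38.p6, Psmb9, Tap1, Psmb8 and Tap2 are adjacent measured genes on chromosome 17, in the MHC region. Of the 10 measured genes on each side of Psmb9, 4 rose (H2-K1, Tap1, H2-Ab1 and Psmb8, itself a member) and none fell. Of all probe sets, 1.83% rose and 1.55% fell. Around Psmb10 on chromosome 8 no neighbour passed in either direction. Around Psme1 on chromosome 14, Dcaf11 rose, and around Psmd12 on chromosome 11, Pecam1 and Pitpnc1 rose. Of the constitutive partners, Psmb6 had Pfn1 that rose and Rnf167 that fell nearby. Nr5a1 fell near Psmb7, and no neighbour of Psmb5 passed.

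Immune cells use the immunoproteasome at rest, so their markers were read in the same pools. In whole ovaries, fewer cells of a type and less RNA per cell cannot be told apart. None of 10 macrophage genes passed in limma. At an unadjusted p under 0.05 there were 4, beside 19.8% of all probe sets. Higher in FL1 were Adgre1 (0.60, adjusted p = 0.0304), C1qc (0.48, 0.0463) and Csf1r (0.35, 0.0945), and C1qb was lower (-0.60, 0.0395). The summed signal of the 10 macrophage genes was 6844 to 8334 in FL1 pools, against 5900 to 8000 in DUKsi pools. DUKsi pool 4, the pool with the high Ovgp1 signal, held the highest DUKsi sum. The other DUKsi pools ended at 6796, below all FL1 pools. Of 6 dendritic cell genes, Cd74 rose (0.85, adjusted p = 0.00534), and the sum was 2377 to 3864 in FL1, against 1688 to 2318 in DUKsi, without overlap. Cd74, which all cells with MHC class II carry, made up most of this sum, and without it the other 5 genes summed to 636 to 1040.3 in FL1, against 736 to 801 in DUKsi. Of 11 measured lymphocyte genes none passed (2 at an unadjusted p under 0.05), and Cd4 and Cd2 were below 48.4 in both line means. The lymphocyte sum was 1413 to 1877 in FL1, against 1262 to 1702 in DUKsi. Without DUKsi pool 4 the DUKsi sums still reached 1541, inside the FL1 range. Ptprc, which all white blood cells carry, had 0.69 (adjusted p = 0.0240) and Nkg7 of cytotoxic cells had 1.04 (0.0295). Also above 0 were Cd3g (0.43, 0.294), Cd2 (0.43, 0.561), Cd79b (0.29, 0.622), Cd3e (0.06, 0.962) and Cd8a (0.03, 0.949). The remaining lymphocyte genes were lower in FL1: Ms4a1 had -0.41 (0.276), Ighm -0.28 (0.277), Cd79a -0.22 (0.638) and Cd4 -0.11 (0.865). The median log2 difference of the 11 lymphocyte genes was 0.06.

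Immune sums and inducible subunits were read pool by pool. FL1 pool 5 had the highest macrophage, dendritic cell and lymphocyte sums of FL1 and the highest Psmb9 and Psmb10. Psmb8 was highest in FL1 pool 2 (776, with 753 in FL1 pool 5) and Psme1 in FL1 pool 1. FL1 pool 3, the lowest of its line for all 4 inducible genes, had the lowest dendritic cell sum of FL1 (2377). Without Cd74, however, the same pool had the highest sum of the other dendritic cell genes in FL1 (1040.3). Its macrophage and lymphocyte sums (7269 and 1699) were not the lowest of FL1. DUKsi pool 4 had the highest macrophage, dendritic cell and lymphocyte sums of DUKsi and the highest Psmb8. The dendritic cell ranks of FL1 pool 5 and DUKsi pool 4 rested on Cd74 too. Without Cd74 neither pool had the highest dendritic cell sum of its line. Psmb9 was highest in DUKsi pool 5, and Psmb10 and Psme1 in DUKsi pool 1. Markers of ovarian cells moved too. Of 4 luteal genes, Cyp11a1 and Ptgfr rose, and the sum was 31299 to 36634 in FL1, against 19382 to 24941 in DUKsi. Of 6 endothelium genes, Pecam1 alone rose, and the sum was 3055 to 3672 in FL1, against 2537 to 3199 in DUKsi, where pool 4 was the highest. Of 4 granulosa genes, Inhba alone fell, Amh had 0.27 (adjusted p = 0.191), Fshr -0.05 (0.807) and Inha -0.16 (0.169). Their sum was 18317 to 20950.3 in FL1, against 20501 to 25138 in DUKsi. Inha, with line means of 13644.5 in FL1 and 15297 in DUKsi, made up most of this sum. Of 7 oocyte genes, Zp3 alone fell, and the sum was 6775 to 8994 in FL1, against 8831 to 10592 in DUKsi. The part of these cell types in the values of Psmb8, Psmb9 and Psmb10 was not tested.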

How the data were processed

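RNA of 12 ovary pools (6 FL1, 6 DUKsi) was hybridized to 24 MOE 430A arrays, 2 per pool. Intensity, as deposited, is the MAS5 signal of a probe set, which the authors had brought to the same target on each array. Detection calls were not used here. From these, the mean of both arrays of a pool was taken on the linear scale, then log2. Lines were compared with limma 3.58.1 in R 4.3.3 (lmFit, eBayes with trend), with Benjamini-Hochberg adjustment over 22626 probe sets after 64 control probe sets were left out. A single gene symbol was given for 20380 probe sets, several for 691 and none for 1555. The procedure was tested on simulated signals. For lists and pairs, each gene stands by its brightest probe set. Pairs were tested by exact permutation over 924 regroupings, and passed at an adjusted p under 0.05. Pools of a line hold different animals per the study's methods. Named were all probe sets of the inducible genes, Psmb5, Psmb6, Psmb7, Psme3 and Psme4, members that passed, the highest and lowest gene of each subcomplex, the antigen processing list, and the 2 pathway genes that differed most. Members and lists were chosen with earlier results of these data known. Alternatives changed arrays, scaling, constant, filter, test, threshold, pools and covariate.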

Additional observations from a re-analysis of the deposited data

Results flagged for a closer look

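Psme1 in FL1 had 1 pool far from the others: pool 1 at 3002 (3001.55 before rounding), against 2176 to 2455 in the other 5 FL1 pools. Its gap to the nearest pool was 0.662 of the range of the line. Of 40 groups of 6 pools looked at, 1 stood out in this way, and chance flags about 1 in 20, or 2 of 40.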

How the results depend on the processing

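Psmb9 passed under all alternatives run, with log2 differences of 0.85 to 1.19 and adjusted p up to 0.00729. The count of members that rose was 5 with all 24 arrays and the pool as a random block, 1 with the methods' t-test, 1 without the trend and 5 at an adjusted p under 0.05, and 2 to 4 with 1 pool left out. The count that fell was 1 at an adjusted p under 0.05, 1 without FL1 pool 3 and DUKsi pool 4, 3 with the beta-actin ratio as a covariate (Psmd6, Psmc2 and Psmd11), and 0 to 1 with 1 pool left out, where FL1 pool 3 made the difference. Of the pathway genes, 1 rose with arrays scaled to the same median and 1 at an adjusted p under 0.05, Pomp in both. With 1 pool left out the count stayed at 0 in both directions. The inducible median was 0.81 with the covariate and 0.52 to 0.65 with 1 pool left out. The constitutive median was 0.082 with arrays scaled to the same median, 0.075 with the covariate and -0.038 to 0.022 with 1 pool left out. With 1 pool left out the pairs gave 0.46 to 0.60 (Psmb8), 0.85 to 1.003 (Psmb9) and 0.34 to 0.44 (Psmb10). Psmb10 over Psmb7 did not pass on array 2 alone (0.18, adjusted exact permutation p = 0.160). Pools of the same number did not deviate together (correlations -0.264 to 0.167, 0 of 6 highest with their own number). With the pool number as a replicate block, Psmb10 over Psmb7 gave 0.39 and an adjusted exact permutation p of 0.0625, and the other pairs 0.0469. With 6 blocks this permutation test cannot give a p under 0.01. In limma with the same block, Psmd12 had an adjusted p of 0.0184. Of 810 values of 29 named probe sets under alternatives, 16 moved past the threshold and 12 no longer passed. The sign turned in 25, none of them past the test in either setting. Psmb8 was lost with the methods' t-test (0.0244) and without the trend (0.0130), Psmd12 likewise (0.0149 and 0.0134), and B2m with the methods' t-test (0.0139). The cause of these shifts was not tested. Of the 74 member probe sets, 4 had both line means below 48.4, the level under which 20% of all signals lay.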
